A study of Mus musculus with 10 samples.

Results

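The LIM cofactors are the proteins that sit between LIM-domain transcription factors and the rest of a regulatory complex, and 10 of their genes are described here: the adaptors Ldb1 and Ldb2, the LIM-only genes Lmo1, Lmo2, Lmo3 and Lmo4, the single-stranded DNA binding protein genes Ssbp2, Ssbp3 and Ssbp4, and the ubiquitin ligase gene Rlim. They are 10 of the 17835 genes tested. The list was drawn up by family name around Ldb2, which was chosen on its difference between the groups in these same counts. The values of Ldb2 in the 2 groups are therefore given as a description, without a test, and the other 9 genes were compared with the test across all genes.

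RNA was sequenced from YFP-positive cells sorted from dissociated mouse spinal cord at e10.5, in 5 control and 5 cdKO samples. All of them carried 1 Olig2-Cre and 1 Rosa26R-YFP allele. Control cells were Oc1+/Flox and Oc2+/Flox, so the control cells that expressed Cre kept 1 working copy of each Onecut gene, and cdKO cells were Oc1-/Flox and Oc2-/Flox. The Onecut genes encode transcription factors of young motor neurons, and Olig2 is expressed in the progenitors that give rise to motor neurons. The YFP label follows Olig2-Cre activity and not motor neuron identity, and the study's staining also found YFP in cells ventral to the motor neurons. The titles give e10.5 for every sample, while the sample descriptions count upwards by sample and are not used here. Nothing in the labels says whether the samples of a group were separate embryos, litters or pools, so p-values measure only the spread between these samples.

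The cells held motor neuron and progenitor transcripts in every sample. All 9 motor neuron markers (Mnx1, Isl1, Isl2, Lhx3, Lhx4, Chat, Slc18a3, Slc5a7 and Prph) were tested, and their summed level ran from 539 to 779 CPM (counts scaled to a common library size) in control samples and from 404 to 922 CPM in cdKO samples. The 7 progenitor markers summed to between 785 and 2220 CPM in control samples and between 893 and 1690 CPM in cdKO samples. Most of that sum was 1 gene, Hes5, at 559 to 1940 CPM in control and 698 to 1410 CPM in cdKO samples. Olig2 itself ran from 37.5 to 87.8 CPM in control and from 26.3 to 71.1 CPM in cdKO samples. Onecut3, which was near absent from cdKO samples, had 29 to 68 counts in control and 0 to 3 in cdKO samples. Onecut1 measured 5.84 ± 2.82 CPM in control and 2.71 ± 1.26 CPM in cdKO samples (SD, n = 5 each), and Onecut2 4.80 ± 3.34 and 6.91 ± 7.14 CPM. These are sums over whole genes, which also count exons outside a deletion. Several libraries stood apart. Control replicate 2 and cdKO replicate 1 had few counts on genes of low GC content (median log2 deviations of -0.59 and -0.72 over the 20% of genes lowest in GC) and control replicate 5 went the other way (0.39). Over the 20% of genes with the shortest transcripts, the median log2 deviation was 1.04 in cdKO replicate 5 and -0.50 in control replicate 4. The median share of a gene's counts on its last, 3′-most exon was 47.0% in cdKO replicate 5, 29.5% in control replicate 5 and 22.5% to 24.1% in the other 8 samples.

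LIM homeodomain factors such as Isl1 and Lhx3, which specify motor neurons, do not act alone. The protein LDB1 forms dimers and binds the LIM domains of these factors, so that it joins them into larger complexes, and in young motor neurons it brings ISL1 and LHX3 together. LIM-only proteins have LIM domains but no DNA binding domain and compete for or extend the same contacts, SSBP proteins bind LDB1 and protect it from degradation, and RLIM marks LDB proteins for the proteasome.

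The 10 genes were transcribed at very different levels. Levels of different genes were compared as CPM per kb of counted exon, with the read length added to each bin because reads had been assigned to all bins they touched. In control samples Ssbp3 was the most abundant at 28.3 ± 7.81 CPM per kb (SD, n = 5), followed by Lmo1 at 20.8 ± 10.4, Ssbp2 at 10.7 ± 1.47 and Ldb1 at 7.01 ± 2.52 CPM per kb. Ssbp4 and Lmo4 had nearly the same mean, 4.0 ± 2.16 and 3.91 ± 0.440 CPM per kb, and each was the higher of the pair in 5 of the 10 samples. Rlim followed at 2.15 ± 0.830 CPM per kb. The lowest were Lmo3 at 0.727 ± 0.150, Lmo2 at 0.466 ± 0.266 and Ldb2 at 0.420 ± 0.108 CPM per kb. Neighbours in this order mostly overlapped. The control range of Lmo4 lay wholly above that of Rlim, whereas the control ranges of all 8 other neighbouring pairs overlapped. Between neighbours, Ssbp3 exceeded Lmo1 in 8 of 10 samples, and Lmo1 exceeded Ssbp2, Ssbp2 exceeded Ldb1, and Ldb1 exceeded Ssbp4 in 9 of 10 each. The same 10 genes kept their order when bin length alone was used, but a median over bins of at least 100 bases, which gives weakly counted bins the weight of the main exons, put Lmo1 and Ldb1 at the top with 19.8 and 5.69 CPM per kb, Ssbp3 at 1.35 and Ssbp2 at 0.239 CPM per kb.

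**Figure D1:**
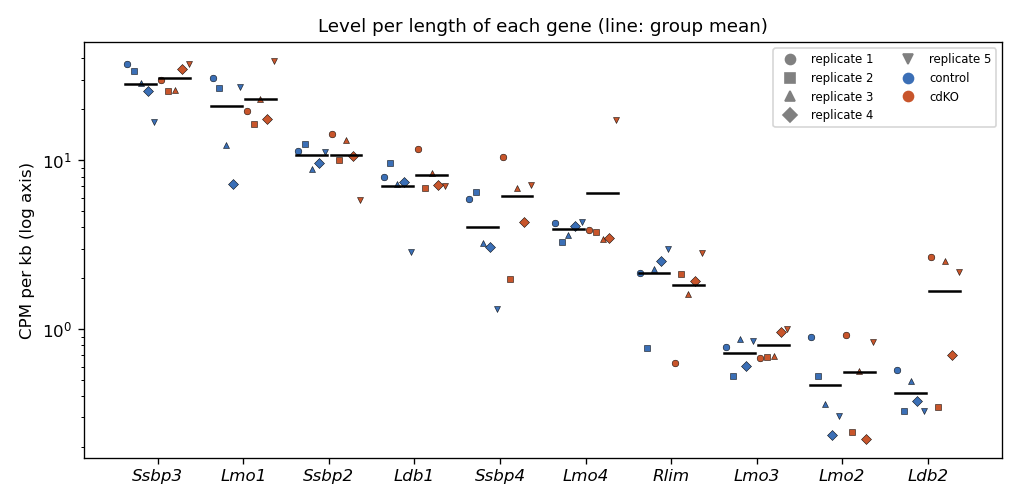
Level of each gene in CPM per kb (log axis) in the 10 samples, with 1 marker per replicate, control in blue and cdKO in orange, and a line at each group mean. The genes are in the order of their control means, from Ssbp3 at 28.3 to Ldb2 at 0.420 CPM per kb, and the cdKO mean of Ldb2 was 1.68 CPM per kb.

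Within each family 1 gene held most of the counts per length in control cells. Ssbp3 made up 65.3% ± 5.01 of the 3 Ssbp genes in control and 64.6% ± 8.58 in cdKO samples (SD, n = 5 each). Lmo1 made up 76.9% ± 11.1 of the 4 LIM-only genes in control and 76.9% ± 6.11 in cdKO samples. The LIM-only genes together came to 4.65 ± 3.92 times the level of Ldb1 in control and 3.97 ± 2.41 times in cdKO samples, with the highest values in control replicate 5 (11.4) and cdKO replicate 5 (8.20), without which the means were 2.97 and 2.91 times.

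None of the 9 genes compared by test was called different between control and cdKO samples. By edgeR, with p-values adjusted over all 17835 genes by the Benjamini-Hochberg method, 0 of the 9 passed an adjusted p of 0.05, and 0 of 9 had an unadjusted p under 0.05. The background was as low: 0% of all genes passed and 4.98% had an unadjusted p under 0.05. Onecut3, near absent from cdKO samples, was not called either (log2 difference -5.08, SE 0.76, edgeR adjusted p = 0.111). A gene that was not called may therefore still differ. DESeq2, limma-voom and limma-voom with quality weights for the samples also called 0 of the 9, while over all genes they called 20, 3 and 13. The fitted log2 difference, cdKO minus control, was above 0 for 8 of the 9 and below 0 for Rlim, with a median of 0.15 against -0.02 for all genes tested, but 7 of these 9 signs turned under at least 1 other setting.

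**Figure D2:**
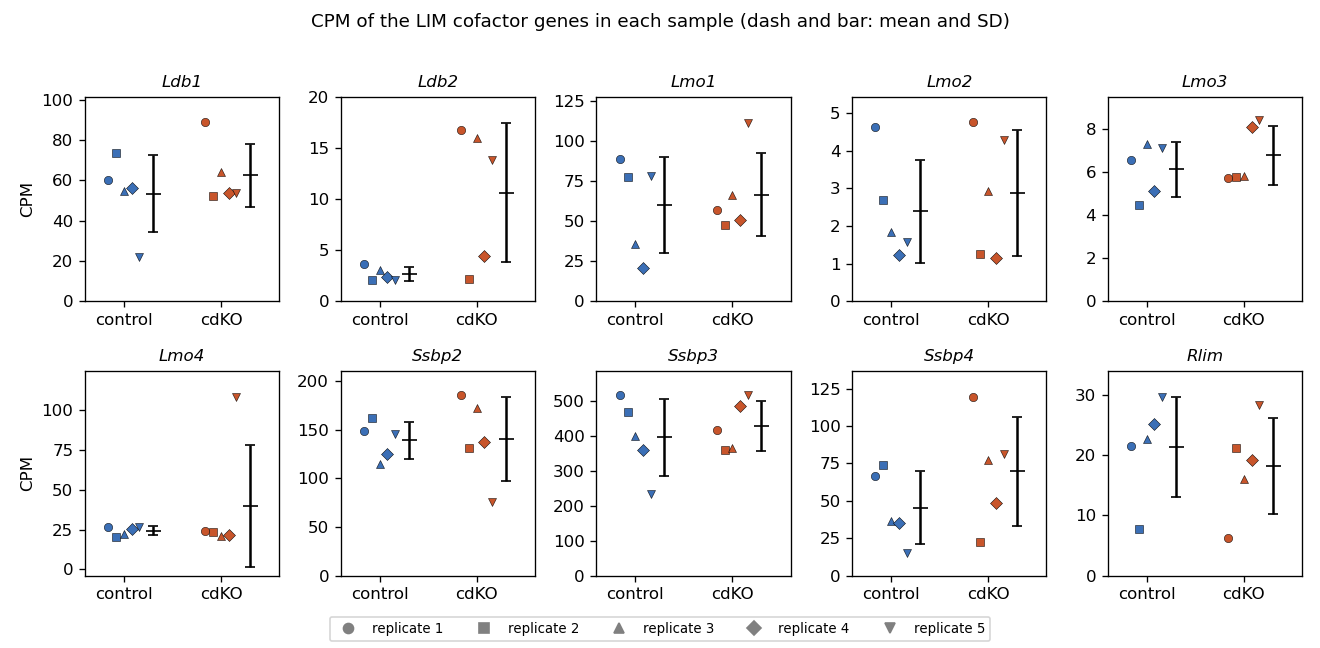
CPM of each of the 10 genes in every sample, 1 panel per gene, each with its own axis, with control replicates in blue and cdKO replicates in orange and the mean and SD of each group as a dash and bar. The groups overlap for all 10 genes. In the Ldb2 panel cdKO replicates 1, 3 and 5 lie between 13.8 and 16.8 CPM and the highest control sample at 3.61 CPM, and in the Lmo4 panel cdKO replicate 5 stands alone at 108 CPM.

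Ldb1 (ENSMUSG00000025223, GRCm38 chromosome 19 from 46032593, minus strand) encodes the main adaptor of LIM homeodomain complexes. It measured 60.3, 73.6, 54.9, 56.1 and 21.7 CPM in control replicates 1 to 5 and 89.0, 52.0, 64.1, 53.9 and 53.6 CPM in cdKO replicates 1 to 5. Control replicate 5 was low and cdKO replicate 1 high, and the groups overlapped. The fitted log2 difference was 0.23 (SE 0.32, edgeR adjusted p = 0.997), and 0.03 without control replicate 5. Counts lay elsewhere along the gene in 2 libraries. The last exon held 42.7% of Ldb1's counts in control replicate 5 and 68.6% in cdKO replicate 5, and 16.8% to 18.7% in each of the remaining 8 samples. Without the last exon, Ldb1 measured 12.5 CPM in control replicate 5 and 16.8 CPM in cdKO replicate 5 and 42.4 to 73.7 CPM in the others, so these libraries were the lowest of their groups. Of Ldb1's counts, 4.70% lie on bins of its 5′ exon that overlap the Pprc1 gene, and as strand was not used in counting, reads of the 2 genes cannot be told apart there.

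Ldb2 (ENSMUSG00000039706, GRCm38 chromosome 5 from 44472132 to 44799680, minus strand) encodes the paralogous adaptor, which binds LIM domains in the same way. In control samples it measured 3.61, 2.08, 3.10, 2.39 and 2.07 CPM, and in cdKO samples 16.8, 2.19, 15.9, 4.41 and 13.8 CPM. Replicates 1, 3 and 5 of the cdKO group were high, replicate 4 was above every control sample, and replicate 2 lay within the control range, so the groups overlapped by 1 sample. Group means were 2.65 ± 0.683 CPM in control and 10.6 ± 6.81 CPM in cdKO samples (SD, n = 5 each), and the fitted log2 difference was 2.00. This is the difference that chose Ldb2, so it is given without a test. It stayed between 1.77 and 2.26 when any 1 sample was left out and was 1.29 in limma-voom with sample quality weights. These refits use the same counts that chose Ldb2 and are also a description. Per length, Ldb2 made up 3.29% to 10.3% of the 2 adaptor genes in control samples and 18.5%, 4.82%, 23.0%, 8.97% and 23.6% in cdKO replicates 1 to 5.

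The 2 adaptor genes are alike in sequence but can be told apart by reads of 150 bases. Their coding sequences were identical at 74.5% of aligned bases, and the longest stretch they share, shown because no longer run of bases is common to both, is 23 bases long.

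Ldb1 and Ldb2: caggtacctgatgtgatggtggt

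The higher Ldb2 counts of cdKO samples were spread over the whole transcript. The annotation gives Ldb2 8 exons in its main coding transcript, Ldb2-201, and all 8 carried counts. The ratio of the cdKO mean to the control mean ran from 3.14 at exon 4 (chr5:44535038-44535160) to 5.68 at the last exon (chr5:44472132-44473512), which contains the 3′ untranslated region. On exon 1 (chr5:44799362-44799680) the samples measured 0.532, 0.374, 0.318, 0.447 and 0.0886 CPM in control and 2.29, 0.274, 2.65, 0.823 and 1.79 CPM in cdKO replicates 1 to 5. The same cdKO replicates 1, 3 and 5 lay above all control samples on each of the 8 exons, and replicate 2 was below the control median on exon 1. The last exon held 37.6% of Ldb2's counts in cdKO replicate 5 and 12.4% to 32.1% in the other 9 samples. Without it, Ldb2 measured 1.57 to 2.96 CPM in control samples and 13.2, 1.49, 12.6, 3.31 and 8.59 CPM in cdKO replicates 1 to 5.

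**Figure D3:**
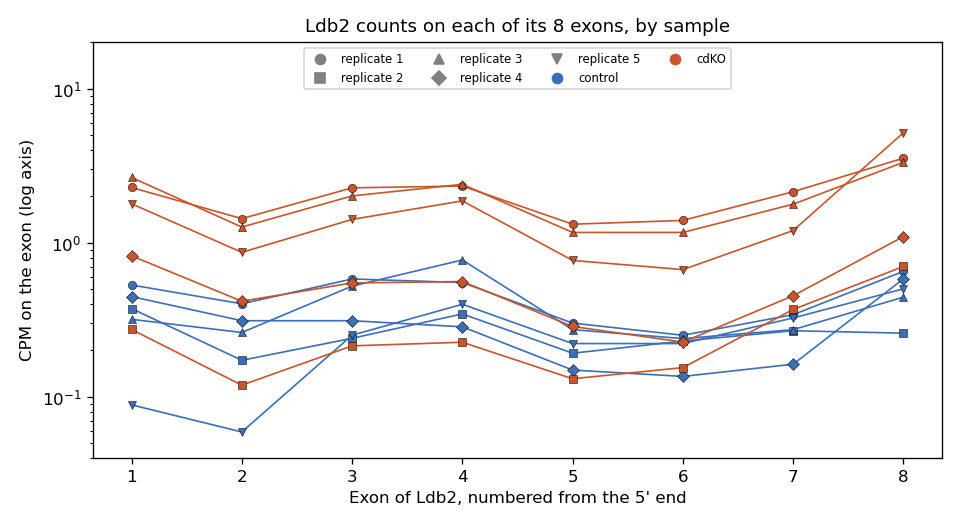
CPM on each of the 8 exons of Ldb2 (log axis) against exon number from the 5′ end, with 1 line per sample, control in blue and cdKO in orange. The lines of cdKO replicates 1, 3 and 5 lie above all control lines at every exon, and cdKO replicate 2 lies among or below the control lines up to exon 6.

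A cassette exon of 143 bases (chr5:44476493-44476635), present in the transcripts Ldb2-204 and Ldb2-207, had 0 counts in all 5 control samples, 3 counts in cdKO replicate 1, 12 in cdKO replicate 3 and 0 in the other 3 cdKO samples. Those 2 samples had the most Ldb2 counts, 1321 and 1296. It thus held 0.227% and 0.926% of their Ldb2 counts. Control samples had 140 to 360 Ldb2 counts each, in which 0 counts allow a share of up to 0.833% to 2.14% per sample (3 counts, counting error only). All cassette counts came from those 2 cdKO libraries, and a difference between the groups was not tested. Counts on the parts of Ldb2-202 and Ldb2-206 that no coding transcript contains were 0 in every sample.

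Ldb2 is also a gene of endothelial and other non-neural cells, so markers of such cells were looked at in the same samples. The 13 endothelial markers summed to 18.8 to 32.8 CPM in control and 19.2 to 38.4 CPM in cdKO samples, with the highest sum in cdKO replicate 1. Most of that sum was 1 gene, Egfl7 (33.1 CPM in cdKO replicate 1 and 28.1 CPM in control replicate 5), and the other 12 summed to between 2.49 and 5.31 CPM in the 10 samples. Of the 13, 8 were tested and 0 called, and the defining Cdh5, Flt1, Tek, Erg and Sox17 were too low to be tested. The 13 erythroid markers ran from 1.46 to 19.8 CPM in control samples and reached 55.8 CPM in cdKO replicate 3 and 67.0 CPM in cdKO replicate 5, against 11.6 CPM in cdKO replicate 1, and of the 8 tested 0 were called and 2 had an unadjusted p under 0.05 in edgeR. The 10 mesenchymal markers ran from 7.18 to 20.8 and from 12.7 to 24.7 CPM, the 9 macrophage markers, nearly all of it Csf1r and with C1qc at 0 in every sample, from 3.15 to 5.26 and from 3.39 to 6.93 CPM, and the 10 sensory and neural crest markers from 64.6 to 112 and from 30.2 to 98 CPM, and 0 genes of these 3 lists were called, with 2 mesenchymal genes at an unadjusted p under 0.05 in edgeR. The 8 dorsal interneuron markers stayed at or below 1.26 CPM in sum, with Lbx1 and Barhl2 at 3 counts or fewer in every sample. The 5 genes of the V2b interneuron list (Gata2, Gata3, Tal1, Foxn4 and Sox1) ran from 8.67 to 23.4 and from 11.1 to 28.5 CPM in sum. Sox1 alone made up 6.60 of the 8.67 CPM in control replicate 5 and 7.60 of the 28.5 CPM in cdKO replicate 5. The 9 Hox genes of lumbar levels summed to 0.993 CPM in control replicate 1 and 1.39 CPM in control replicate 5 and to 15.2 to 107 CPM in the other 8 samples. Of the tested genes, 7 of 8 erythroid, 9 of 10 mesenchymal and 8 of 8 lumbar Hox genes had log2 differences above 0. Their medians were 1.96, 0.49 and 1.02, against -0.02 over all genes. For endothelial, sensory and neural crest, and V2b genes these counts were 6 of 8, 3 of 7 and 3 of 5. Of the Hox genes 0 were called and 1 had an unadjusted edgeR p under 0.05, against 4.98% of all genes. The part of these cells and levels in the Ldb2 values was not tested. In bulk samples, fewer cells of a type and less RNA per cell cannot be told apart.

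Among the 13541 genes tested with a mean of at least 1 CPM, those whose log2 CPM over the 10 samples was most like that of Ldb2 were Ufsp1 (Pearson r 0.914), Fxyd5 (0.896), Gm9954 (0.891), Tac1 (0.885) and Rpp25 (0.874). The points share their libraries, and the likeness is a description. It was taken over both groups, so it includes the difference on which Ldb2 was chosen. Tac1, the precursor of substance P, was at most 0.240 CPM in control samples and 5.55, 1.08, 4.53, 1.01 and 20.1 CPM in cdKO replicates 1 to 5. Fxyd5, a regulator of the sodium pump, was at most 0.883 CPM in control samples and 3.53, 0.143, 1.54, 1.55 and 4.53 CPM in cdKO replicates 1 to 5. Fxyd5, like Ldb2, had the lowest value of the cdKO group in replicate 2, a sharing that picking genes by likeness to Ldb2 favours.

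Of the LIM-only genes, Lmo1 (ENSMUSG00000036111, chromosome 7, minus strand) was the most abundant. LMO1 is a LIM-only protein of the developing nervous system that can occupy LDB1 in place of LIM homeodomain factors. It measured 88.9, 77.3, 35.7, 20.9 and 78.3 CPM in control and 56.7, 47.5, 66.3, 50.7 and 111 CPM in cdKO replicates 1 to 5. The control samples alone spanned more than the distance between the group means, and the fitted log2 difference was 0.14 (SE 0.40, edgeR adjusted p = 0.998) and -0.12 without cdKO replicate 5. Lmo1, whose longest transcript has 1282 bases, was highest in cdKO replicate 5 and lowest in control replicate 4, the libraries set apart on short transcripts. With a GC and length offset, chosen after seeing the data, its log2 difference was -0.086. The part of length was not tested.

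Lmo1 has 2 alternative coding first exons. The upstream one (chr7:109174938-109175207) opens transcript Lmo1-202 and the downstream one (chr7:109169983-109170519) opens Lmo1-201, and both splice to the same next exon. A further coding transcript, Lmo1-203 (438 coding bases), starts within the downstream exon (chr7:109170325-109170512), so counts on that exon are not those of Lmo1-201 alone. The starts of Lmo1-202 and Lmo1-201 are shown because the first residues of their proteins differ. The coding bases within each first exon, minus strand, with the start codon in capitals, are the following.
Lmo1-202, upstream: ATGgttttggaccaagaggacg
Lmo1-201, downstream: ATGatggtgctggacaaggaggacg

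The balance of the 2 first exons varied widely from sample to sample, and no difference between the groups was detected. The downstream exon held 64.2%, 63.2%, 73.5%, 79.2% and 22.0% of the first-exon counts in control and 73.5%, 33.5%, 64.8%, 46.4% and 60.6% in cdKO replicates 1 to 5. Control replicate 5 had the lowest share and cdKO replicate 2 the next. These shares are of counts as deposited, without correction for length. The downstream exon has 537 bases and the upstream one 270, and a read is counted on every bin it touches. The shares can therefore be compared between samples but do not say which first exon was used more. The means were 60.4% ± 22.5 and 55.8% ± 15.9 (SD, n = 5 each), and an exact two-sided permutation test over all 252 arrangements gave p = 0.706. The share was examined after the counts had been seen.

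**Figure D4:**
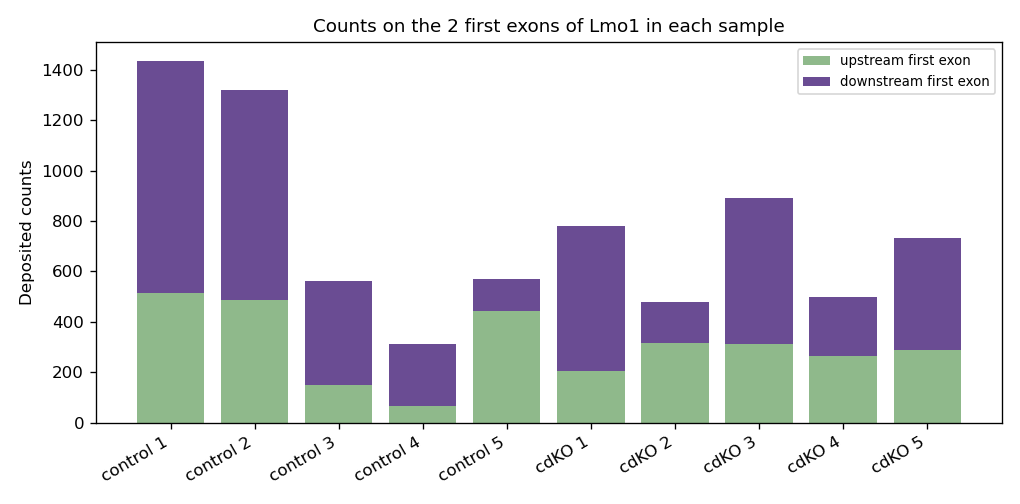
Deposited counts, not corrected for exon length, on the upstream (green) and downstream (purple) first exon of Lmo1 in the 10 samples, as stacked bars from 0. The downstream exon has 125 of the counts in control replicate 5, where the upstream exon has 444, and 922 in control replicate 1, where the upstream exon has 514.

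RefSeq promoter windows, each reaching from 250 bases before a transcript start to 50 bases after it on GRCm38.p6, were available for 8 of the 10 genes, 14 windows in all, and those of Ldb2 and Lmo2 were not used here. They were searched on both strands for the letters ATCAAT, which read as ATTGAT on the opposite strand, the core that Onecut factors are known to bind. The windows of Lmo1 were 2 overlapping ones on the upstream first exon, and the start of the downstream first exon was not searched. Of the 14 windows 1 held the letters, that of the outermost Lmo1 start, at 2 places. This is close to the background, as 7.54% of all 32851 windows hold the letters at least once. The variant ATCGAT was in none of the 14 and in 0.925% of all windows. The 250 bases upstream of that start (chr7:109175208-109175457, minus strand) are shown because they hold both matches, in capitals.
Lmo1, upstream start: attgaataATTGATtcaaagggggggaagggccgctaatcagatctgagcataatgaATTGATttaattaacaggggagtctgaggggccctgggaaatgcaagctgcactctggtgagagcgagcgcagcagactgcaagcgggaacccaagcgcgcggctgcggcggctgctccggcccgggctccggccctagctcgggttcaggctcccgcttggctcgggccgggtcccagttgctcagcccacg
A match of this kind is a description of the letters and not of binding. On the exon that follows this window the counts were 514, 486, 149, 65 and 444 in control and 207, 318, 313, 267 and 288 in cdKO replicates 1 to 5, with cdKO samples inside the control range.

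Lmo2, Lmo3 and Lmo4 encode the other LIM-only proteins: LMO2 is the bridge of the blood cell complex with TAL1, GATA factors and LDB1, LMO3 is a neuronal relative of LMO1, and LMO4 is broadly expressed in the embryo and limits LIM homeodomain activity in motor neurons. Lmo2 was low, from 1.22 to 4.64 CPM in control and from 1.16 to 4.76 CPM in cdKO samples (log2 difference 0.26, SE 0.50, edgeR adjusted p = 0.997). Lmo3 ran from 4.46 to 7.31 and from 5.71 to 8.43 CPM, and was among the least variable genes of its level, with a coefficient of variation relative to the trend at percentile 5.43 of the genes tested (log2 difference 0.15, SE 0.29, edgeR adjusted p = 0.997).

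Lmo4 (ENSMUSG00000028266, chromosome 3, minus strand) measured 26.5, 20.5, 22.4, 25.3 and 26.7 CPM in control and 23.9, 23.4, 21.2, 21.6 and 108 CPM in cdKO replicates 1 to 5. In 9 of the 10 samples it lay between 20.5 and 26.7 CPM, and cdKO replicate 5 alone was high. The fitted log2 difference of 0.71 (SE 0.46, edgeR adjusted p = 0.973) rested on that library and was -0.10 without it. That library also stood high on genes with short transcripts, and the longest Lmo4 transcript has 1669 bases. The part of length was not tested. The last exon of Lmo4 held 64.5% of its counts in that library, or 69.8 CPM, while the other 4 cdKO samples had 8.79 to 9.41 CPM on it. Its remaining exons were also higher there, with 38.4 CPM against 12.2 to 15.1 CPM.

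**Figure D5:**
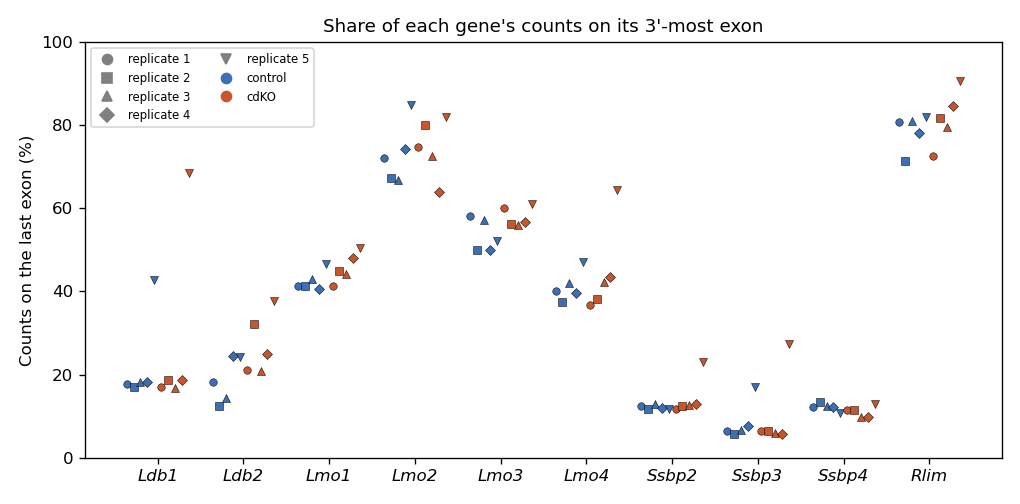
Share of each gene's counts that lies on its 3′-most exon, in percent, in the 10 samples, with 1 marker per replicate, control in blue and cdKO in orange. For Ldb1, Lmo4, Ssbp2 and Ssbp3, cdKO replicate 5 (68.6%, 64.5%, 23.0% and 27.3%) lies apart from the other cdKO samples, and for Ldb1 and Ssbp3 control replicate 5 (42.7% and 16.9%) lies apart from the other control samples.

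Per length, the 3 Ssbp genes together exceeded the 4 LIM-only genes together in 8 of the 10 samples, and not in control replicate 5 or cdKO replicate 5. Ssbp3 (ENSMUSG00000061887, chromosome 4, plus strand) was at percentile 97.6 of all tested genes by CPM. That ranking is not per length and counts a read on every bin it touches. Ssbp3 measured 519, 470, 399, 359 and 235 CPM in control and 416, 360, 367, 488 and 518 CPM in cdKO replicates 1 to 5. The low value was that of control replicate 5, and the log2 difference was 0.12 (SE 0.27, edgeR adjusted p = 0.997) and -0.03 without that sample. On its last exon cdKO replicate 5 had 141 CPM, against 22.0 to 39.8 CPM in all other samples.

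Ssbp2 (ENSMUSG00000003992, chromosome 13, plus strand) measured 149, 162, 115, 125 and 145 CPM in control and 185, 131, 172, 138 and 75.4 CPM in cdKO replicates 1 to 5. Apart from cdKO replicate 5, all samples lay between 115 and 185 CPM. The log2 difference was 0.01 (SE 0.28, edgeR adjusted p = 0.999) and 0.18 without that library. Its last bin, with 0.567% of its counts, overlaps the gene 4833422C13Rik, and reads of the pair cannot be told apart there.

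Ssbp4 (ENSMUSG00000070003, chromosome 8, minus strand) was the most variable of the 3. It measured 66.8, 74.0, 36.7, 34.9 and 14.9 CPM in control and 119, 22.6, 77.6, 48.8 and 81.4 CPM in cdKO replicates 1 to 5. The log2 difference was 0.62 (SE 0.47, edgeR adjusted p = 0.997), above 0 under every alternative run and between 0.33 and 0.86. Ssbp4 is richer in GC than 99.0% of tested genes, with 64.3% in its longest transcript, and it was highest of each group in control replicate 2 and cdKO replicate 1 and lowest overall in control replicate 5, the libraries set apart by GC. After a per-sample correction for GC, these samples measured 54.2, 78.5 and 22.6 CPM, and the ranges were 22.6 to 65.5 CPM in control and 25.4 to 86.6 CPM in cdKO samples.

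Rlim (ENSMUSG00000056537, X chromosome, minus strand) encodes a ubiquitin ligase that removes LDB proteins and also activates Xist, the RNA that silences an X chromosome in female cells. Rlim measured 21.5, 7.71, 22.7, 25.2 and 29.8 CPM in control and 6.30, 21.2, 16.1, 19.3 and 28.3 CPM in cdKO replicates 1 to 5. Control replicate 2 and cdKO replicate 1 were low and the other 8 samples lay between 16.1 and 29.8 CPM. The log2 difference was -0.23 (SE 0.42, edgeR adjusted p = 0.997), -0.45 without control replicate 2, -0.01 without cdKO replicate 1 and -0.23 without both. Both low samples are the libraries with few counts on genes of low GC, and Rlim, with 40.9% GC, is at GC percentile 8.54. With the GC correction they measured 12.5 and 10.3 CPM and were still the lowest, against 15.5 to 26.8 CPM in the others. Xist and the Y-linked genes Ddx3y, Uty, Kdm5d and Eif2s3y set the samples apart by sex. Control replicates 2, 3 and 5 and cdKO replicates 1 and 4 had at most 0.274 CPM over the 4 Y-linked genes, and the other 5 samples 60.5 CPM or more. Xist in these 5 female samples was 3.59, 13.5, 41.2, 2.83 and 11.1 CPM in the order given, lowest in the same 2 samples in which Rlim was lowest. The part of sex and of GC content in Rlim was not tested apart. With sex as a covariate 0 of the 9 genes were called.

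The use of single exon bins, each set against the rest of its gene, was tested with edgeR's diffSpliceDGE, with Simes' method per gene and Benjamini-Hochberg adjustment over 12320 genes. None of the 9 genes passed (0% of all genes did), and 1 of the 9, Ssbp2, had an unadjusted Simes p under 0.05, as had 1.23% of all genes. In Ssbp2 the p was 5.37e-05 and the adjusted p from edgeR was 0.165. The bin behind it (chr13:91670465-91672408, 1944 bases) lies in an intron retained in transcript Ssbp2-204 and had 15, 0, 25, 99 and 198 counts in control and 0, 12, 0, 29 and 5 in cdKO replicates 1 to 5. A further retained intron part (chr13:91564695-91565210, 516 bases, in Ssbp2-208) had 16, 5, 34, 130 and 150 counts in control and 10, 10, 5, 20 and 20 in cdKO replicates. Most of these counts came from control replicates 4 and 5, and together the bins hold 0.331% and 0.345% of Ssbp2's counts. Without control replicate 5 the unadjusted Simes p of edgeR was 0.0655, and without cdKO replicate 5 the adjusted p was 0.00138, the only setting in which a gene of the 9 was called.

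The partners of these cofactors were compared as lists. Of the 12 LIM homeodomain genes, 9 were tested (Lhx2, Lhx8 and Lhx9 were too low), 6 were above 0 and 3 below on the log2 scale, 0 were called by edgeR against 0% of all genes, and 1 had an unadjusted p under 0.05. Their median log2 difference was 0.18, against -0.02 over all genes. That 1 was Isl1, the LIM factor of newborn motor neurons, with 253, 135, 208, 182 and 347 CPM in control and 95.8, 164, 97.7, 159 and 118 CPM in cdKO replicates 1 to 5 (log2 difference -0.83, SE 0.31, edgeR adjusted p = 0.938). Without control replicate 5, its highest sample, the log2 difference was -0.62 and the unadjusted edgeR p was 0.0544. Replicates 2 and 4 of the cdKO group lay above control replicate 2, so the groups overlapped. Control replicate 2 is a library with few counts on genes of low GC. With the GC correction, chosen after seeing the data, Isl1 measured 162 to 308 CPM in control and 100 to 152 CPM in cdKO samples. How many of all genes have separate groups after that correction was not counted, so these ranges are a description. Its log2 difference ran from -0.60 without control replicate 5 and cdKO replicate 5 to -0.96 without control replicate 2. Isl1 was called in none of the alternatives. The paper's staining found less Isl1 in laterally placed motor neurons of cdKO embryos. Lhx6, at 0.50 CPM or less, and Lmx1a, at 1.42 CPM or less, had the next smallest p, with edgeR adjusted p of 0.984 and 0.997. Of the 9 GATA and bHLH partners, 7 were tested (Gata1 and Lyl1 were too low), 4 above and 3 below 0, and 0 were called or had an unadjusted p under 0.05, with a median log2 difference of 0.21. The smallest p were those of Gata3, a V2b interneuron and blood factor (log2 difference 0.83, SE 0.56, edgeR adjusted p = 0.982), Tcf4, a general bHLH partner (-0.50, SE 0.38, edgeR adjusted p = 0.997), and Tal1, the bHLH factor that binds LMO2 (0.65, SE 0.61, edgeR adjusted p = 0.997). Tal1 and Gata3 were both highest in cdKO replicate 5, at 6.93 and 5.71 CPM.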

How the data were processed

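RNA-seq of FACS-sorted YFP-positive spinal cells was analysed in 5 control and 5 cdKO samples. The deposited values are whole-number read counts per exon bin made by the authors, 1 table a sample (bins are non-overlapping parts of exons), not normalized. The submitters' processing notes name bcl2fastq 2.17, Trimmomatic 0.36, STAR 2.5.2b, Subread 1.5.2, DESeq2 and the GRCm38 build, without roles or settings. Reads were 150 bases long, paired. Read overlaps with bins, not reads, were counted, without strand, and summed to 63932395 to 107709534 per control and 72315782 to 84249157 per cdKO sample, so precision is limited by the spread between samples and, for Ldb2 and Lmo2, by counts.

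Bins were summed per gene with GENCODE M21 (49384 of 49644 identifiers found). Of 425461 bins, 3988 on several genes were left out, with 1.17% of the counts. Genes passing filterByExpr (minimum count 10) were TMM-scaled and compared by glmQLFTest, the quasi-likelihood test of edgeR (4.0.16, R 4.3.3), adjusted by Benjamini-Hochberg at 0.05. SE is the log2 difference over the root of F. Exon usage was tested with diffSpliceDGE, and DESeq2 1.42.0 and limma-voom 3.58.1 were alternatives, beside other scalings, filters, covariates and left-out samples. Scripts were tested on simulated data. No sample pair within a group was a duplicate (chi-square per degree of freedom 111 to 1740 over 20 pairs).

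The genes, lists and tests were chosen with earlier results of these data known. Named genes are the 10 cofactors, the Onecut genes, the called or 3 smallest-p genes of each partner list, the 5 genes most like Ldb2 and the sex genes. The Lmo1 first exons, Egfl7, Csf1r, Hes5, Olig2 and Sox1 were singled out after their values were seen.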

Additional observations from a re-analysis of the deposited data

Results flagged for a closer look

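In 42 groups of 5 samples (the CPM and the last-exon share of each of the 10 genes and the first-exon share of Lmo1, in control and cdKO), 8 had a sample far from the other 4 of its group by Dixon's test. Chance flags about 1 in 20 groups, or 2.10 of 42. Lmo4 in cdKO replicate 5 was at 108 CPM, against 21.2 to 23.9 CPM in the other 4 cdKO samples. The last-exon share set apart cdKO replicate 5 for Ldb1 (68.6%, the others 16.8% to 18.7%), Lmo4 (64.5%, the others 36.8% to 43.5%), Ssbp2 (23.0%, the others 11.7% to 13.0%) and Ssbp3 (27.3%, the others 5.68% to 6.50%). It set apart control replicate 5 for Ldb1 (42.7%, the others 16.9% to 18.2%) and Ssbp3 (16.9%, the others 5.64% to 7.71%). The downstream first exon of Lmo1 held 22.0% of first-exon counts in control replicate 5, against 63.2% to 79.2% in the other 4 control samples. Of the 8, 5 are cdKO replicate 5 and 3 are control replicate 5, the libraries whose median last-exon share over all genes is the highest.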

How the results depend on the processing

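In all 24 alternatives 0 of the 9 genes other than Ldb2 were called, with adjusted p of 0.645 or more, and DESeq2 gave Lmo4 no p. With the replicate block 0 of the 9 were called and the number of all genes with an unadjusted p under 0.05 was 462, against 888 without it. The pairing is uncertain: deviations of same-numbered samples correlated between -0.316 and 0.428, over 0.1 in 3 of 5 pairs, and 2 of 5 control samples correlated best with their own number. Ldb1 and Ssbp4 kept their sign in all 24, as did Ldb2, which had been chosen on its difference in these counts. Signs of log2 differences turned as follows, and the cause was not tested. By library size alone, which moves the median of all genes from -0.02 to -0.15, Lmo1 was -0.035, Lmo3 -0.011, Ssbp2 -0.089 and Ssbp3 -0.044. By limma-voom with sample quality weights Lmo2 was -0.107, Lmo3 -0.027, Lmo4 -0.062 and Ssbp3 -0.033. Ssbp2 was -0.038 by limma-voom and by the block. With a GC and length offset Lmo1 was -0.086 and Rlim 0.023. That offset was chosen after seeing the data, like the GC correction alone, the omission of last exons and the 2 paired omissions next given. Without control replicate 5 and cdKO replicate 5 Lmo1 was -0.023, Lmo2 -0.056, Lmo4 -0.081 and Ssbp3 -0.111, and without control replicate 2 and cdKO replicate 1 Ssbp2 was -0.047. With 1 sample left out, which had been planned, the ranges were -0.12 (without cdKO replicate 5) to 0.32 (without control replicate 1) for Lmo1, -0.002 to 0.65 for Lmo2, -0.10 to 0.86 for Lmo4, -0.11 to 0.18 for Ssbp2, -0.027 to 0.23 for Ssbp3 and -0.45 (without control replicate 2) to -0.01 (without cdKO replicate 1) for Rlim.

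Exon usage called 0 of the 9 genes with 1 sample left out except without cdKO replicate 5, where it called 1, Ssbp2, among 3 of all 12491 genes. Its adjusted p ran from 0.0694 to 1 in the other 13 alternatives. With the replicate block 0 were called and the adjusted p of Ssbp2 was 1.

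Control levels in CPM per kb depend on how length is counted. Bin length alone gave Ldb1 14.9, Ldb2 0.794, Lmo1 38.8, Lmo2 1.11, Lmo3 1.19, Lmo4 6.87, Ssbp2 17.5, Ssbp3 60.3 and Ssbp4 14.4. The median over bins of at least 100 bases gave Ldb2 0.581, Lmo4 1.58, Ssbp2 0.239, Ssbp3 1.35 and Ssbp4 0.939. The bins of 1 coding transcript, also chosen after seeing the data, gave Ldb1 10.9, Ldb2 0.584, Lmo3 1.38, Lmo4 7.48, Ssbp2 17.5, Ssbp3 46.7 and Ssbp4 6.32, in the order of the report but for Lmo4 above Ssbp4. Control counts of Ldb2 (140 to 360) limit what its minor exons can show.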
